A study of Mus musculus with 4 samples.

Results

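The epicardial and mesothelial marker genes are 10 genes taken by name from the deposited gene tables of mouse whole hearts: Wt1, Tbx18, Tcf21, Aldh1a2, Upk1b, Upk3b, Msln, Krt8, Krt18 and Krt19. All 10 were found among the 22552 gene rows of each table. Poly-A RNA was sequenced in 4 libraries of the strain labelled Sv129, 1 for each genotype at each stage. The postnatal day 2.5 (P2.5) pair was a heart library labelled dKO, in which both miR-1 genes (miR-1-1 and miR-1-2) are deleted, and a littermate control labelled dHET, whose column is headed hetero. The embryonic day 15.5 (E15.5) pair was dKO and dHET as labelled, although the table heads its control column WT. How many hearts and how many litters stand behind a library is not given in the sources used here. Each group was 1 library, so no difference below has a replicate check, no test was made, and "higher" and "lower" compare 2 libraries.

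The epicardium is the mesothelial sheet that covers the heart. In the embryo its cells express the transcription factors Wt1 and Tbx18, make retinoic acid through Aldh1a2 and send growth signals to the muscle beneath, and some of them lose their epithelial form and enter the wall as fibroblasts and mural cells, a step in which Tcf21 marks the fibroblast branch. Mesothelium also carries simple-epithelium keratins, uroplakins and mesothelin on its surface. In whole-heart RNA it is a thin layer, so fewer such cells and less RNA per cell cannot be told apart.

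The values are FPKM, fragments scaled to transcript length and to the library's total, as the authors deposited them. The change of a gene is log2((FPKM dKO + 1)/(FPKM dHET + 1)), which understates the change of low genes, and the words "at least 1.5-fold higher" or "lower" refer to that scale. Genes are counted as measured where 1 library of the pair or both reached 1 FPKM. All 10 markers met that minimum at both stages, Krt8 at P2.5 through the dKO library alone. Scaling totals read from the steps of low values were 44600000 fragments (dHET) and 49900000 (dKO) for the P2.5 pair and 86500000 and 103900000 for the E15.5 pair. From these totals and transcript lengths the markers rested on 54 to 3005 fragments per library at P2.5 and 158 to 2543 at E15.5. The fragments of Tcf21, Upk3b, Krt19 and Msln are approximate, since the annotated transcript length did not give whole numbers. The 95% intervals given with ratios and levels cover the counting of fragments and nothing else; they leave out the variation between hearts. Of the markers of the labelled tissue, cardiac actin (Actc1) stood at 4264 to 7921 FPKM over the 4 libraries. At P2.5 Xist went from 0.101 FPKM (dHET) to 50.7 (dKO), while the Y-linked Ddx3y went from 11.7 to 0, so the sex of the hearts and the genotype cannot be told apart at that stage. At E15.5 Ddx3y was at 15.3 and 14.8 FPKM.

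The microRNA removed in these hearts acts through a short seed that pairs with messenger RNA, mostly in the 3' UTR, and miR-133 is made from the same gene clusters. A pair of related microRNAs is shown because their seeds match the words that were searched, miR-206 having the seed of miR-1 and miR-133b that of miR-133. Both come from RefSeq (GRCm38.p6, chromosome 1, plus strand, 20679055 to 20679076 and 20682834 to 20682855), with the seed, bases 2 to 8, in capitals.
mmu-miR-206-3p: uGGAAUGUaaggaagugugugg
mmu-miR-133b-3p: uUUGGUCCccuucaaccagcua

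None of the 10 markers held a seed match of miR-1 in its longest annotated 3' UTR (GENCODE M1, the assembly of mm9). The words searched were ACATTCC and CATTCCA, on the transcript strand; they share 6 letters and can overlap. Over 11696 genes that reached 1 FPKM in any library and have an annotated 3' UTR, 11% held the first word, 12.8% the second and 18.5% either. The markers' 3' UTRs ran from 65 bases (Krt18) to 2421 (Tbx18), with a median of 553.5, against 1206 over those genes, and a shorter stretch holds fewer words. The word of miR-133, GGACCAA, stood in 2 of the 10 markers and in 8.86% of the genes. It began at base 1469 of the Tbx18 3' UTR and at base 33 of the Krt18 one. These stretches are given on mm9, with the word in capitals: chromosome 9, 87598571 to 87598597, minus strand, and chromosome 15, 101862415 to 101862441, plus strand. A match is a description of the letters, not of a site in use.
Tbx18: cctcctaggaGGACCAAggaggaagat
Krt18: gggaactgagGGACCAAtaaaagttga

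At P2.5 the markers went both ways, and Krt18 was the 1 marker past 1.5-fold. Of the 10, 4 lay above 0 and 6 below, and of all 11703 measured genes 60.7% lay above 0. The changes ran from -0.43 (Tbx18) to 1.13 (Krt18), with a median of -0.13 against 0.066 for those genes. At least 1.5-fold higher was 1 of 10 markers, against 3.4% of the measured genes, and lower were 0 of 10, against 1.33%. At E15.5 the markers lay closer to 0, 5 above and 5 below, from -0.61 (Krt19) to 0.27 (Tcf21), with a median of -0.035 against -0.0078 over 11709 genes. Of those genes 47.6% lay above 0. None of the 10 was at least 1.5-fold higher, against 0.487% of genes, and 1, Krt19, was lower, against 0.726%. With 10 genes a single call is 1 in 10, so these shares carry little weight against the background. In the authors' deposited table, 0 of the 10 markers were significant at either stage; the lowest q-value was 0.10 at P2.5 (Krt18) and 0.416 at E15.5 (Krt19).

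**Figure D1:**
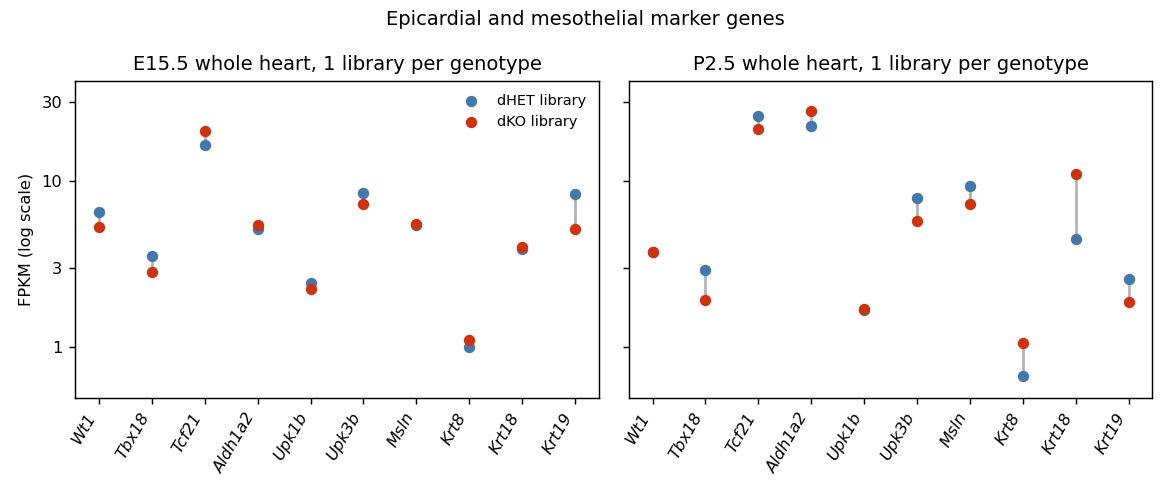
FPKM of the 10 marker genes (log axis) in the dHET and dKO libraries at E15.5 (left) and P2.5 (right), 1 point per library, joined by a grey line within a stage. Tcf21 lay at 16.4 to 24.7 FPKM in all 4 libraries, Krt8 between 0.671 and 1.11, and the widest pair was Krt18 at P2.5 (4.50 and 11.1).

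In level, Tcf21 was among the top 2 of the markers in all 4 libraries and Krt8 was the lowest in all 4. In the P2.5 dHET library the order was Tcf21 (24.7 FPKM), Aldh1a2 (21.6), Msln (9.29), Upk3b (7.91), Krt18 (4.50), Wt1 (3.75), Tbx18 (2.94), Krt19 (2.56), Upk1b (1.69) and Krt8 (0.671). Neighbours in that order whose counting intervals overlapped were Krt18 with Wt1 and Tbx18 with Krt19. In the P2.5 dKO library Aldh1a2 stood before Tcf21 and Krt18 moved up to the third place, while Tbx18, Krt19 and Upk1b (1.92, 1.87 and 1.71) followed one another with overlapping intervals. In the E15.5 dHET library Tcf21 (16.4) was followed by Upk3b (8.53) and Krt19 (8.42), whose intervals overlapped, then by Wt1 (6.49), Msln (5.48) and Aldh1a2 (5.15). In the E15.5 dKO library Msln, Aldh1a2, Wt1 and Krt19 lay within 5.18 to 5.55 FPKM, each overlapping the next. Set among all genes with at least 1 FPKM, Tcf21 was above 72.5% to 82.7% of genes over the 4 libraries, and Krt8 above at most 1.24%.

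Among the transcription factors, Tbx18 was lower in the dKO library at both stages, Wt1 at E15.5, and Tcf21 went in opposite directions. Wt1 (chromosome 2, 104966686 to 105013771, mm9), a zinc finger factor that keeps epicardial cells able to form mesenchyme, measured 3.75 FPKM in dHET against 3.74 in dKO at P2.5, and 6.49 against 5.31 at E15.5. These are log2 ratios of -0.0043 (95% counting interval -0.18 to 0.17) and -0.29 (-0.39 to -0.19). The P2.5 libraries did not differ in Wt1 beyond counting error, and at E15.5 the dKO library was the lower one.

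Tbx18 (chromosome 9, 87597635 to 87626095), a T-box factor of the proepicardium and the sinus node, measured 2.94 FPKM in dHET against 1.92 in dKO at P2.5, and 3.54 against 2.83 at E15.5. Its log2 ratios were -0.61 (-0.79 to -0.43) and -0.32 (-0.43 to -0.21). The dKO library was lower at both stages, and on the scale with 1 added (-0.43 and -0.24) neither reached 1.5-fold. With a pseudocount of 0.1 Tbx18 passed 1.5-fold at P2.5. Tbx18 holds the miR-133 word shown above and no word of miR-1.

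Tcf21 (chromosome 10, 22537079 to 22539934), a basic helix-loop-helix factor needed for cardiac fibroblasts, measured 24.7 FPKM in dHET against 20.5 in dKO at P2.5, and 16.4 against 20.0 at E15.5. The log2 ratios were -0.27 (-0.38 to -0.16) and 0.28 (0.20 to 0.37). The dKO library was thus the lower one after birth and the higher one before it. At E15.5 the dKO library held 3.76 times as much Tcf21 as Wt1 in FPKM, against 2.53 times in dHET, and at P2.5 the factors were 5.48 and 6.59.

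Aldh1a2 (chromosome 9, 71063596 to 71144050), the enzyme that makes retinoic acid in epicardium, measured 21.6 FPKM in dHET against 26.6 in dKO at P2.5, and 5.15 against 5.44 at E15.5. Its log2 ratios were 0.30 (0.22 to 0.38) and 0.079 (-0.041 to 0.20). The dKO library was higher at P2.5 and within counting error of the control at E15.5. The stages were normalised separately and read in different ways (single reads at P2.5, paired reads at E15.5), so the levels are only set side by side: Aldh1a2 stood 4.19 times as high at P2.5 as at E15.5 in dHET and 4.89 times in dKO. Tcf21, Krt18 and Msln were also at a higher FPKM at P2.5 in both genotypes, and the other 6 at a lower one. Krt19 stood 3.28 times as high at E15.5 in dHET and 2.77 times in dKO.

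Of the mesothelial surface proteins, Upk3b was lower in the dKO library at both stages and Msln at P2.5. Upk3b (chromosome 5, 136514366 to 136520863), a uroplakin found on mesothelial cells as well as bladder lining, measured 7.91 FPKM in dHET against 5.78 in dKO at P2.5, and 8.53 against 7.24 at E15.5. The log2 ratios were -0.45 (-0.60 to -0.31) and -0.24 (-0.33 to -0.14), with the dKO library below at each stage. Its tetraspanin relative Upk1b (chromosome 16, 38773297 to 38800316) was at 1.69 (dHET) and 1.71 (dKO) FPKM at P2.5, then 2.45 and 2.25 for the E15.5 pair. Both intervals of Upk1b reached across 0 (-0.33 to 0.37 and -0.33 to 0.083), so no difference was detectable at this depth. Upk3b was 4.69 times as high as Upk1b in dHET and 3.38 times in dKO at P2.5; for the E15.5 pair the ratios were 3.48 and 3.22.

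Msln (chromosome 17, 25885558 to 25891272), which encodes the mesothelial surface protein mesothelin, measured 9.29 FPKM in dHET against 7.32 in dKO at P2.5. The log2 ratio was -0.34 (-0.48 to -0.20). At E15.5 it was at 5.48 and 5.55 FPKM, a ratio of 0.018 (-0.10 to 0.14), within counting error. Of the uroplakins outside the 10 markers, Upk1a was at 0.389 to 0.488 FPKM over the 4 libraries, and Upk2 and Upk3a, which belong to bladder lining, were listed at 0 in all 4.

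**Figure D2:**
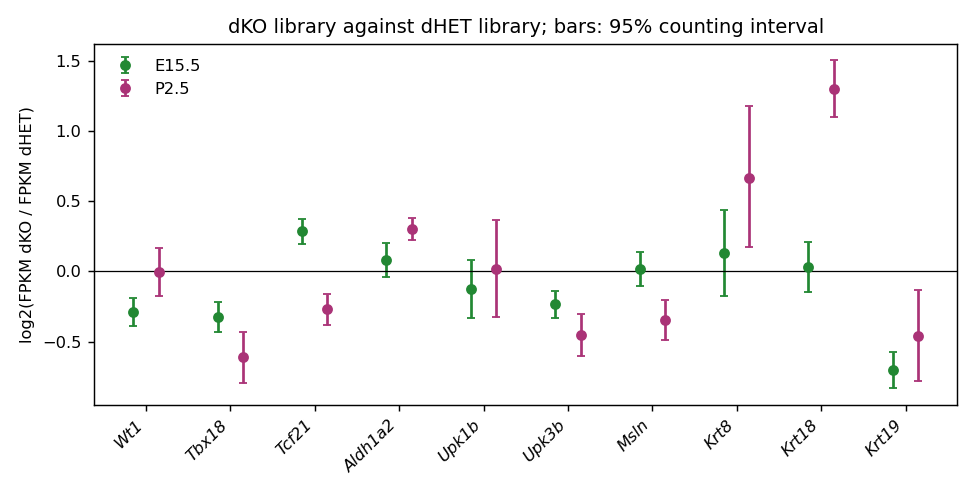
Log2 ratio of FPKM in the dKO library over the dHET library for each marker at E15.5 and P2.5, with nothing added to the values; bars are 95% counting intervals from recovered fragments and leave out variation between hearts. Krt18 at P2.5 (1.30) stands highest and Krt19 at E15.5 (-0.70) lowest, and Tcf21 lies on opposite sides of 0.

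The 3 keratins did not go the same way: Krt18 and Krt8 were higher in the P2.5 dKO library, and Krt19 was lower in the dKO library at both stages. Krt8 and Krt18 are the type II and type I partners that pair into the filaments of simple epithelia, and Krt19 is another type I keratin of the same epithelia that also pairs with Krt8. Krt18 (chromosome 15, 101858647 to 101862457) measured 4.50 FPKM in dHET against 11.1 in dKO at P2.5, or 281 and 774 fragments. The change was 1.13, above 99.7% of measured genes, and the log2 ratio 1.30 (1.10 to 1.5), which is 2.46-fold. At E15.5 Krt18 was at 3.90 and 3.99 FPKM, a ratio of 0.034 (-0.14 to 0.21). The stages were normalised separately, so their levels are only set side by side. The P2.5 dKO library was at 11.1 FPKM and the other 3 lay within 3.90 to 4.50 FPKM. In the authors' deposited table the P2.5 difference of Krt18 had a p-value of 0.000621 and a q-value of 0.10.

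Krt8 (chromosome 15, 101827142 to 101834773), which lies 23873 bases from Krt18, measured 0.671 FPKM in dHET against 1.07 in dKO at P2.5, or 54 and 96 fragments. Its change of 0.31 is understated at such a level; the log2 ratio was 0.67 (0.17 to 1.18), and with a pseudocount of 0.1 it passed 1.5-fold. At E15.5 it was at 1.01 and 1.11 FPKM, a ratio of 0.13 (-0.17 to 0.44). Krt8 was thus above the control in the same P2.5 library as Krt18, by less and from few fragments. Krt18 exceeded Krt8 by 6.71 times in dHET and 10.4 times in dKO at P2.5; for the E15.5 pair the ratios were 3.85 and 3.60.

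Krt19 (chromosome 11, 100002126 to 100007233) was lower in the dKO library at both stages. It measured 8.42 FPKM in dHET against 5.18 in dKO at E15.5, a change of -0.61 and a log2 ratio of -0.70 (-0.83 to -0.57), below all but 0.623% of measured genes. At P2.5 it was at 2.56 and 1.87 FPKM, a ratio of -0.46 (-0.78 to -0.13). In the authors' deposited table the E15.5 difference had a p-value of 0.00770 and a q-value of 0.416. Krt19 stood at 2.16 times Krt18 in the E15.5 dHET library and 1.30 times in dKO, and at 0.570 and 0.169 times at P2.5. The E15.5 call was lost with a pseudocount of 5 (-0.40).

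Reads of Krt8 and Krt18 could have matched elsewhere in the genome. Aligned to mm9 at 90% identity over at least 100 bases, 98.9% of the Krt18 transcript had a copy outside its own locus (highest identity 93.2%, 2 alignments), and 96.0% of Krt8 (97.9%, 1 alignment). For Krt19 it was 10%, and for the other 7 markers 0%. How reads with several matches were treated is not given in the sources used here, so the Krt8 and Krt18 values are uncertain in that respect, and the part of these copies in the P2.5 difference was not tested.

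The promoters of the partner keratins are printed because Krt8 and Krt18 were both above the control in the P2.5 dKO library. Each runs from 250 bases before to 50 after the RefSeq start (GRCm38.p6): chromosome 15, 102004293 to 102004592 on the minus strand for Krt8, and chromosome 15, 102027966 to 102028265 on the plus strand for Krt18. Capitals mark any match, on either strand, to 4 promoter words: the TATA box as TATAAA, the GC box bound by Sp1 as GGGCGG, the CCAAT box by its own letters, and the AP-1 word as TGANTCA.
Krt8: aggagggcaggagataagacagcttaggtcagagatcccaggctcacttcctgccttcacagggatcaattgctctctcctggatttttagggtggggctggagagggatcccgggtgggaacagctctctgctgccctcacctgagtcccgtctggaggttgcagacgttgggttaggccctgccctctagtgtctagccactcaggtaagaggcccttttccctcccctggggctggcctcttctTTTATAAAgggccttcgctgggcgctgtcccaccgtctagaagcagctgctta
Krt18: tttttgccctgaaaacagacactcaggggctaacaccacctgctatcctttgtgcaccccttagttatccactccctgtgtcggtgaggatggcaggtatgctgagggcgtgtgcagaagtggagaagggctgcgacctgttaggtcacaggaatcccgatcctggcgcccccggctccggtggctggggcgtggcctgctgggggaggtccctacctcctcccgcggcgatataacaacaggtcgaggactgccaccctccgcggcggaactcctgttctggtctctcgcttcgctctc

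The Krt8 promoter held TATAAA on both strands, at overlapping positions, and none of the other words. The Krt18 promoter held none of the 4 words. Of 32851 RefSeq promoters of the same length, 13.6% held TATAAA, 35.7% GGGCGG, 37.4% CCAAT and 7.81% TGANTCA. Of the 6 markers with a promoter in that table, Aldh1a2 and Tbx18 each held CCAAT 1 time, and Tcf21 and Upk3b none of the words. GC content was 58.0% for Krt8 and 61.3% for Krt18, and 78.0% for Aldh1a2, where the median promoter had 52.7%.

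**Figure D3:**
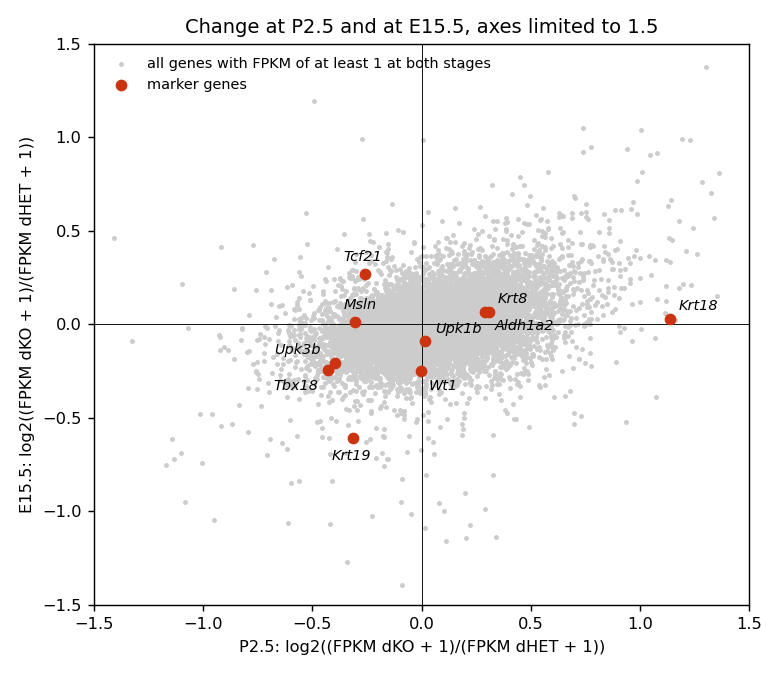
Change of the 10 marker genes (red, named) and of all genes measured at both stages (grey) at P2.5 (x axis) and E15.5 (y axis), as log2 of dKO over dHET with 1 added to each FPKM; genes beyond the axis limits are not drawn. Krt18 lies far to the right at a height near 0 (1.13 and 0.027), and Krt19 lies low (-0.31 and -0.61).

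Side by side, 4 markers were below 0 at both stages (Wt1, Tbx18, Upk3b and Krt19), 3 were above 0 at both (Aldh1a2, Krt8 and Krt18) and 3 changed sign (Tcf21, Upk1b and Msln). Genes whose pair of changes lay nearest to that of Krt18, among 7247 genes that reached 5 FPKM in 1 library or both at each stage, were the atrial myosin light chain Myl4 (1.16 at P2.5 and 0.025 at E15.5), Itgb1bp3 (1.11 and 0.060), Tesc (1.08 and 0.14), Unc119 (1.18 and 0.19) and the calsequestrin gene Casq1 (1.12 and 0.21). Of those 7247 genes only 2 lay within 0.1 of Krt18 in that plane. The keratin Krt80 changed by 1.15 and 0.013. It was left out of the ranking because it reached only 4.96 FPKM at P2.5. Nearest to Wt1 were Prep, Hspa4, Ccdc41, Abhd14a and Tpr, with 230 genes within 0.1. The likeness rests on 2 differences between 2 libraries each.

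Other genes of epicardium and mesothelium, a list of 16 of which 15 were found (all but Muc16), were mostly below 0 in the dKO libraries. Of the 10 measured at P2.5, 4 lay above 0, against 60.7% of all measured genes, with a median of -0.23 against 0.066 for all genes. None was past 1.5-fold upward and 1 was downward, against 3.4% and 1.33% of all measured genes. That gene was the complement component C3, at 11.5 FPKM in dHET and 6.74 in dKO, which macrophages and fibroblasts make too. Lrrn4, a mesothelial membrane protein, was at 2.23 and 1.5 FPKM, Efemp1, a fibulin, at 2.57 and 1.62, and the guidance factor Sema3d at 3.14 and 2.23. At E15.5, 2 of 11 measured were above 0, against 47.6% of all measured genes, and 0 were past 1.5-fold in either direction. The median was -0.11, against -0.0078 for all genes. Pdpn, the mesothelial glycoprotein podoplanin, was at 4.68 and 3.79 FPKM and the Wnt agonist Rspo1 at 2.21 and 1.77. At P2.5 Rspo1 was higher in the dKO library (0.844 FPKM in dHET and 1.08 in dKO). Scx (7.42 and 8.17) and Rarres2 (20.2 and 21.1), named after their values were seen, were also above 0 at P2.5. Both were below 0 at E15.5 (-0.12 each). Nkain4, named after its values were seen, was above 0 at both stages (3.05 FPKM in dHET and 3.29 in dKO after birth, 5.53 and 6.03 before it).

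Genes of the cells that epicardium gives rise to, 18 of fibroblasts, mural cells and the mesenchymal transition, included lower and higher members at P2.5. Of 18, 7 were above 0, against 60.7% of all measured genes, and 0 were at least 1.5-fold higher. The median was -0.17, against 0.066 for all genes. At least 1.5-fold lower were 3 of 18, against 1.33% of all measured genes. These were Mfap5, a microfibril protein (from 18.6 FPKM in dHET to 8.16 in dKO), and the proteoglycans Lum (44.7 to 26.7) and Dcn (187 to 122). The collagen genes Col1a1 (221 to 309) and Col3a1 (464 to 571), named after their values were seen, were higher by less than 1.5-fold. Dpt (81.7 to 54.7) and Postn (303 to 205), the latter named after its values were seen, were lower by less than 1.5-fold. At E15.5 3 of 18 were above 0, against 47.6% of all measured genes, with a median of -0.084. At least 1.5-fold lower was 1 of them, Mfap5 (5.09 to 2.78 FPKM), against 0.726% of all measured genes. None of the 5 transition factors on the list, all given here whatever their values, passed 1.5-fold at either stage. At P2.5 Snai1 (0.39) and Twist1 (0.027) were above 0, and Snai2 (-0.32), Zeb1 (-0.26) and Zeb2 (-0.34) below. At E15.5 the 5 lay between -0.22 (Zeb2) and -0.024 (Twist1).

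In the retinoic acid pathway no gene reached 1.5-fold at either stage, of 10 and 11 measured, with medians of 0.028 (P2.5) and -0.017 (E15.5). At P2.5 Aldh1a1, a relative of Aldh1a2, measured 3.05 FPKM (dHET) and 2.22 (dKO), and the retinoid X receptor gene Rxrb 16.3 and 19.8. At E15.5 Dhrs3, which turns retinal back into retinol, was at 4.91 and 3.25 FPKM, a change of -0.48. The breakdown enzymes Cyp26a1 and Cyp26b1, named after their values were seen, were at 0.277 to 1.41 FPKM over the 4 libraries.

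Among ligands, receptors and adhesion genes between epicardium and muscle, 1 of 12 was at least 1.5-fold higher at P2.5 and 1 of 12 lower at E15.5. The shares of all measured genes were 3.4% and 0.726%. The higher gene was thymosin beta 4 (Tmsb4x), at 581 (dHET) and 936 (dKO) FPKM at P2.5, then 683 and 923 for the E15.5 pair. The lower gene was the integrin Itga4, which holds epicardium to Vcam1 on muscle, at 3.07 FPKM in dHET and 1.15 in dKO at E15.5. The authors' deposited table marked that difference as significant. At P2.5 Itga4 was below the minimum, at 0.524 (dHET) and 0.483 (dKO) FPKM. The epicardial growth factor Fgf9 was at 2.06 and 1.30 FPKM at P2.5 and Pdgfa at 28.3 and 39.5. Medians of the list were 0.15 and 0.046.

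Of 14 other keratins 4 were measured at each stage. At P2.5 1 of 4 was at least 1.5-fold higher and 0 lower, against 3.4% and 1.33% of all measured genes. At E15.5 0 of 4 were past 1.5-fold upward or downward, against 0.487% and 0.726%. With 4 genes a single call carries little weight. The type II keratin Krt80 measured 1.69 FPKM in dHET against 4.96 in dKO at P2.5, a change of 1.15, close in size to that of Krt18, and 7.26 against 7.33 at E15.5. Krt7, another mesothelial keratin, was at 1.56 (dHET) and 1.34 (dKO) FPKM at P2.5, then 3.12 and 2.65 for the E15.5 pair. Of the keratins of stratified epithelium, the basal ones were low, with Krt5 at most at 0.0308 FPKM and Krt14 at most at 0.301, while the suprabasal Krt10 was at 1.19 to 2.04 FPKM, above Krt8 in each of the 4 libraries. Of 10 genes of desmosomes and keratin anchoring, 6 were measured and 0 reached 1.5-fold at either stage; desmoplakin (Dsp), abundant in heart muscle, was at 108 (dHET) and 119 (dKO) FPKM at P2.5, then 89.9 and 95.1 for the E15.5 pair. Of 11 genes of epithelial junctions only the cadherin Cdh3 was measured, at 4.71 (dHET) and 5.53 (dKO) FPKM at P2.5, then 20.5 and 14.5 for the E15.5 pair (-0.47), while Epcam and Cdh1 were at 0.0673 FPKM or less in all 4 libraries.

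**Figure D4:**
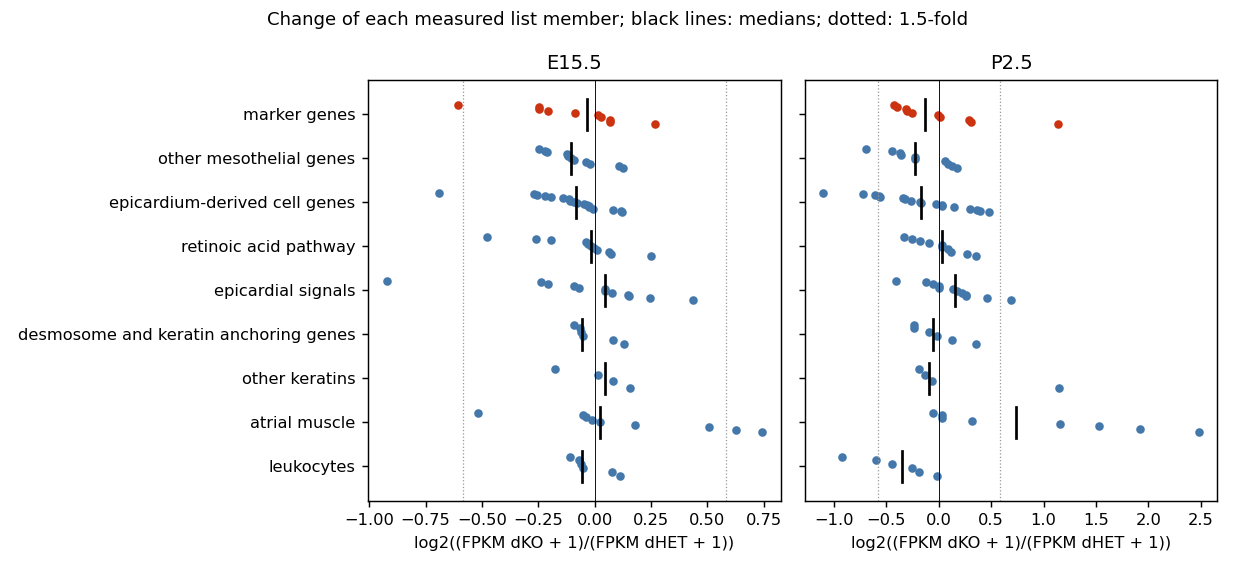
Change of each measured list member (1 FPKM or more in 1 library or both) at E15.5 (left) and P2.5 (right); each point is 1 gene, black lines are list medians and dotted lines mark 1.5-fold, and the x axes differ between panels. At P2.5 the other mesothelial genes have a median of -0.23 and the atrial muscle genes of 0.74, with Krt18 the red point on the right.

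Markers of other tissues that a dissected heart could carry along were below 1 FPKM in all 4 libraries, apart from the lung gene Ager. The lung genes Sftpa1, Sftpd, Scgb1a1, Scgb3a2 and Cldn18 were at 0.0104 FPKM or less in all 4 libraries and Sftpc at most at 0.125; of 10 lung genes only Ager was measured, at 0.980 to 1.47 FPKM. Over the 4 libraries, the summed level of 8 thymus genes was 0.0586 to 0.986 FPKM and that of 5 liver genes 0.225 to 0.327, with Foxn1 and Alb listed at 0 in each.

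At P2.5, 4 of 8 measured atrial muscle genes were at least 1.5-fold higher in the dKO library, against 3.4% of all measured genes. None was lower, against 1.33%. The summed level of the list went from 281 to 1282 FPKM, most of it Nppa (182 and 1021). Nr2f1 (-0.058), Nr2f2 (0.026), Dkk3 (0.028) and Gja5 (0.32), named after their values were seen, did not reach 1.5-fold at P2.5. At E15.5, 2 of 9 measured atrial muscle genes were at least 1.5-fold higher (Nppa and Sln), against 0.487% of all measured genes. The sum went from 1785 to 2420. Of 4 smooth muscle genes 2 were higher at P2.5 (Acta2 and Cnn1, sum 696 to 1768 FPKM), against 3.4% of all measured genes. At E15.5 1 was higher (Acta2) and 1 lower (Myh11, 6.95 to 0.915 FPKM), against 0.487% and 0.726% (sum 828 to 1363). Acta2 made up most of these sums (658 to 1692 FPKM at P2.5 and 692 to 1215 at E15.5). Tagln was below 0 at both stages (-0.090 and -0.29). Of 6 leukocyte genes measured at P2.5, 2 were at least 1.5-fold lower (Cd68 and C1qc), against 1.33% of all measured genes, with a median of -0.35 (sum 33.8 to 25.6). At E15.5 none of 6 was past 1.5-fold and 2 were above 0, with a median of -0.055 (sum 21.1 to 20.7). Of 5 ventricular muscle genes none was past 1.5-fold among those measured (sum 11192 to 14012 at P2.5 and 5089 to 4863 at E15.5, the latter without Myh7), and of 7 endothelial genes none (310 to 350 and 249 to 263). Of the measured heart muscle genes 1 of 5 was higher at P2.5 (Tnnt2), against 3.4% of all measured genes. At E15.5 0 of 6 were higher, against 0.487%. The sex-linked list differed at P2.5 in all 5 members and at E15.5 in 0 of 4 measured. The part of atrial, smooth muscle or leukocyte RNA, and of sex, in the marker differences was not tested.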

How the data were processed

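Poly-A RNA of whole hearts was read in 4 libraries, 1 per genotype and stage, with reads of 100 bases. The deposited FPKM values were made by the authors with TopHat, Bowtie and Cufflinks on mm9, per the submitters' processing notes; the notes list no versions or settings. Fold changes (log2), p-values and q-values are those of the authors' deposited table, with the sign at E15.5 turned to dKO over control. Each table held 86 rows that were displaced by commas in gene names, and these were realigned. Rows flagged OK or NOTEST were used; Myh6 (P2.5) and Myh7 (E15.5) carry another flag.

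The change was taken within each stage, with a pseudocount of 1, at a minimum of 1 FPKM in either library and a fold of 1.5. With 1 library per group there is no test. Fragments were recovered from FPKM, transcript length (GENCODE M1, longest transcript) and the scaling total; 6 of the 10 markers gave whole numbers in all 4 libraries within 0.05, and Tcf21, Upk3b, Krt19 and Msln did not, so their fragments are approximate. Of low values of genes with 1 transcript, 61.5% to 62.0% were whole. Intervals are exact binomial (ratios) or Poisson (levels) at 95%. The steps were tested on simulated data. Python 3.11.15, pandas 2.3.3, SciPy 1.17.1 and BLAST 2.17.0 were used. The markers and the 18 other gene lists were chosen with earlier results of these data known. Named genes were all 10 markers, from each list the 4 members that changed most per stage, the 5 genes nearest to Krt18 and to Wt1, and Nppa, Xist and Ddx3y; 1 gene of that rule is not reported here, and other genes are named for being defining markers at or near 0 or are marked. Alternatives were other pseudocounts, filters, scalings, flags and folds, and leaving out keratins.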

Additional observations from a re-analysis of the deposited data

Results flagged for a closer look

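For 3 markers the dKO library lay on opposite sides of its control at the 2 stages; with 1 library per group this difference between stages was not tested. Tcf21 changed by -0.26 at P2.5 and by 0.27 at E15.5, and both counting intervals left out 0. Msln changed by -0.31 and 0.015, where the second lay within counting error. Upk1b changed by 0.013 and -0.086, both within counting error.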

How the results depend on the processing

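No paired analysis was possible because each group held 1 library and the labels give no replicate numbers. At P2.5 Krt18 stayed the only marker at least 1.5-fold higher under 9 of 10 alternatives; a pseudocount of 0.1 gave 2 higher (Krt8 too) and 1 lower (Tbx18), and rescaling to a sum of 1000000 gave 2 lower (Tbx18 and Upk3b). At E15.5 the count lower, 1, was 0 with a pseudocount of 5, an FPKM of at least 10 or a fold of 2. The P2.5 median of -0.13 was -0.071 with a pseudocount of 5, -0.26 over 5 members at FPKM 5, 0.29 over 3 members at FPKM 10, -0.20 centred on all genes and -0.30 rescaled; the last moved the median of all genes by -0.16 and the genes at least 1.5-fold higher and lower from 3.4% and 1.33% to 2.42% and 5.07%. The E15.5 median of -0.035 was -0.097 over 6 members at FPKM 5 and 0.27 for the 1 member, Tcf21, at FPKM 10. Added after seeing the data, leaving out Krt18 gave 0 higher at P2.5 and medians of -0.26 and -0.086, and leaving out the 3 keratins gave 0 higher at P2.5, 0 lower at E15.5 and the same medians. Of 20 marker changes 19 kept their sign under all settings run; Upk1b at P2.5 ran from -0.13 to 0.019. The cause of these shifts was not tested, apart from the fewer members at higher filters.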
